A study of Homo sapiens with 4 samples.

Results

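Colon stem and progenitor markers are genes whose expression is used to recognise the dividing cells at the base of the colonic crypt, and the tumour cells that resemble them. The set described here held 10 genes: LGR5, PROM1, ALCAM, LRIG1, BMI1, HOPX, EPCAM, CD24, OLFM4 and MSI1. They were found by their symbol in the gene column of the tables, and 9 of the 10 had entries, among 53617 genes in all. CD24 matched no entry by symbol and was not analysed here under that name. The 9 genes had 84 transcript entries in each table, of which 0 had a failed status.

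HT29 is a cell line established from a human colon adenocarcinoma, and 4 RNA libraries were sequenced from it. One library came from cells transfected with a precursor of miR-23b, made to raise that microRNA, and one from the control of the precursor. Another came from cells transfected with an antimir against miR-23b, made to block it, and the last from the control of the antimir. All were transfected at 50 nM with a lipid reagent, with a change of medium after 24 h and RNA taken after 48 h. The labels also give 5% serum and 90% confluency for all of them. Each group was 1 library, so no value below has a replicate error and no test was possible. The labels give no measurement of miR-23b itself, and its level in these cells was not checked here.

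The crypt base holds rapidly cycling stem cells and a slower reserve population, and both feed a zone of dividing progenitors. LGR5, a receptor for R-spondins, strengthens Wnt signalling and marks the cycling cells, and OLFM4 is secreted by the same cells in human crypts. BMI1, a subunit of Polycomb repressive complex 1, and HOPX, a small homeodomain protein without DNA binding, were described as markers of the reserve cells in mice, as was LRIG1, a membrane protein that restrains ERBB receptors. PROM1 (CD133), ALCAM (CD166), EPCAM and CD24 are surface proteins used to sort colon cancer stem cells, and MSI1 is an RNA-binding protein that represses translation of the Notch inhibitor NUMB. EPCAM is found throughout the colonic epithelium, so its presence does not mark stem cells alone. A microRNA pairs with its targets mainly through its seed, bases 2 to 8, and usually lowers their RNA or protein.

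The sequence of miR-23b-3p is shown because its seed was searched for in the markers, although the labels name no arm of miR-23b, with the seed in capitals (RefSeq, GRCh38.p14, plus strand, chr9:95085265-95085287).
hsa-miR-23b-3p: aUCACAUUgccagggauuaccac
The seed UCACAUU is shared by miR-23a-3p and miR-23c, so a precursor or a match cannot be assigned among the 3 by seed. The letters searched were the 7 bases that pair with it, AATGTGA, on the transcript strand only, in the longest annotated 3′ UTR of each marker (GENCODE 29, GRCh38). Of the 10 markers, 4 held 1 match each, and 2325 of 11333 expressed protein-coding genes (20.5%) held at least 1. The longest 3′ UTR of PROM1 belonged to ENST00000540805, a transcript listed at 0 FPKM in every library. Whether a match bears on the values of its gene was not tested. The windows around the matches of the 4 markers are printed because transcripts with a match are summed below for 3 of them, with the match in capitals.
LGR5: tgagaacctgaaAATGTGAgattgagtata
PROM1: aaaactctatcaAATGTGAtggctagattc
LRIG1: cttctgagaggcAATGTGAaagagggagta
MSI1: tctaggtttgtgAATGTGAagccccaggcc
On GRCh38 the LGR5 window lies at chr12:71584766-71584795 on the plus strand. The PROM1 window lies at chr4:15969030-15969059, the LRIG1 window at chr3:66378928-66378957 and the MSI1 window at chr12:120342598-120342627, all on the minus strand. An A follows the match in LRIG1 and MSI1, a form held by 9.87% of the expressed genes, and not in LGR5 or PROM1. No match was present in the longest 3′ UTR of ALCAM, BMI1, HOPX, EPCAM, CD24 or OLFM4, which says only that these letters are not in those windows.

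Expression is given as FPKM, a read density per transcript length and library size, summed over the transcripts of a gene, and the 2 tables were normalised separately. EPCAM stood highest, at 743 FPKM with the precursor and 689 with its control, percentiles 99.01 and 98.99 of protein-coding genes. In the other table EPCAM was at 577 FPKM with the antimir and 531 with its control. BMI1 followed, with 123 FPKM with the precursor and 120.3 with its control, and 87.0 with the antimir and 99.96 with its control. PROM1 had 76.5 and 67.7 FPKM for the precursor and for its control, and 46.0 and 54.0 for the antimir and for its control. On hg19, the build of the tables, the EPCAM locus is at chr2:47572297-47614740, that of BMI1 at chr10:22604903-22620413 and that of PROM1 at chr4:15961866-16086001. By these sums the order EPCAM, BMI1, PROM1 was the same in all 4 libraries, with LRIG1 next. In the order precursor, its control, antimir and its control, the longest coding transcript of BMI1 (ENST00000376663) was at 13.4, 12.7, 14.7 and 14.9 FPKM. That was 10.9%, 10.6%, 16.9% and 14.9% of the BMI1 sum, whose other entries of known length had 365 to 745 bases. PROM1 coding transcript ENST00000508167 was at 16.2, 12.4, 17.3 and 17.4 FPKM in the same order. By these transcripts PROM1 stood above BMI1 except in the precursor control.

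LRIG1 had 12.2 FPKM with the precursor and 10.8 with its control, and 7.59 with the antimir and 8.94 with its control. The remaining 3 markers were close together. ALCAM had 5.89 and 4.18 FPKM for the precursor and for its control, and 3.58 and 3.53 for the antimir and for its control. LGR5 had 3.81 and 3.10 FPKM for the precursor and for its control, and 3.32 and 4.24 for the antimir and for its control. HOPX had 4.45 and 3.75 FPKM for the precursor and for its control, and 2.84 and 0.545 for the antimir and for its control. ALCAM, HOPX and LGR5 took different places among the libraries, so their order is not fixed by these data. Their hg19 loci are chr3:105085753-105295744 for ALCAM, chr4:57514155-57548065 for HOPX and chr12:71518865-71980090 for LGR5, and LRIG1 lies at chr3:66119285-66551687. LGR5 stood at percentile 46.9 to 51.6 of protein-coding genes over the 4 libraries.

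OLFM4 and MSI1 had almost no FPKM. OLFM4 was at 0.00863 FPKM with the precursor and 0.0121 with its control, and was listed at 0 in both libraries of the other table. MSI1 was at 0.0014 FPKM with the precursor and listed at 0 in the other 3. Neither passed a mean FPKM of 1, so 7 of the 10 markers entered each comparison. An entry named CD24P4, a pseudogene copy of CD24 that hg19 places on chromosome Y within 21034387 to 21239302, was at 897 FPKM with the precursor and 919.8 with its control. It was at 883 FPKM with the antimir and 878 with its control, and none of these values was tested by the authors. Whether its reads came from CD24 was not tested, so it is not counted as a marker.

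**Figure D1:**
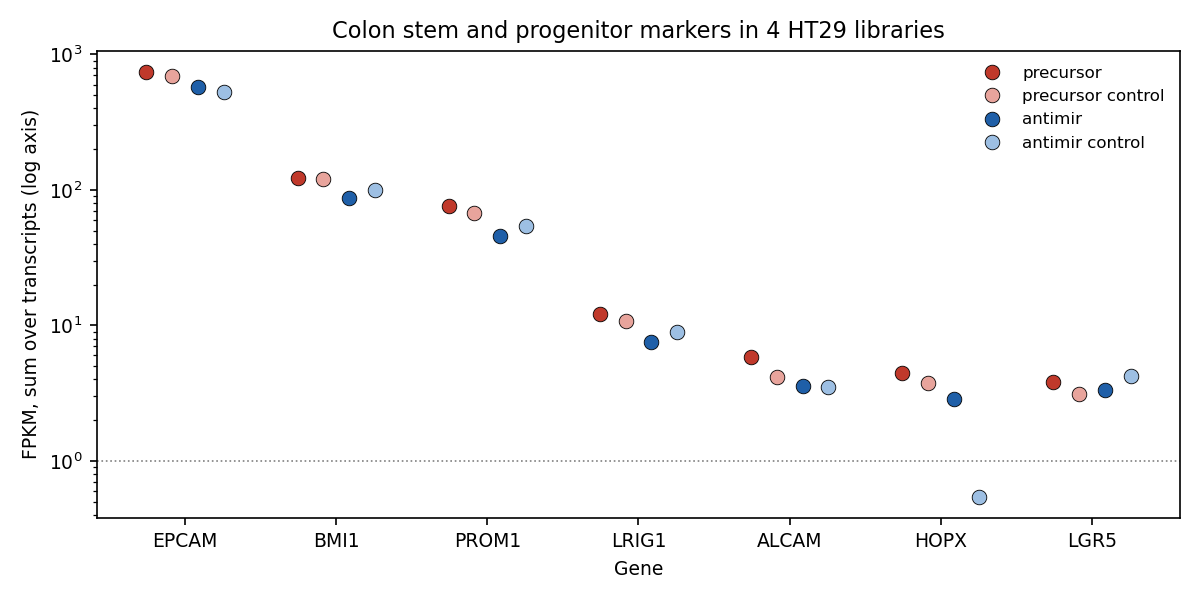
FPKM summed over transcripts (log axis) of the 7 markers that passed a mean FPKM of 1, 1 point per library; the dotted line marks 1 FPKM. EPCAM, BMI1 and PROM1 lie well above the other markers in every library, and HOPX in the antimir control (0.545) is the only point under the line.

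Most of the listed markers of colon epithelium passed the filter, at levels that ranged widely. KRT8, a keratin of simple epithelium, was at 6798 FPKM with the precursor and 6665 with its control, and 2410.4 with the antimir and 2346 with its control. Of 12 such markers, 10 passed the filter in the precursor comparison and 8 in the antimir comparison. CDX1 and CDH17 passed in neither, and CEACAM5 and GPA33 only in the precursor comparison. CDX2 was low, at 2.87 FPKM with the precursor and 2.42 with its control, and 2.19 with the antimir and 2.36 with its control. Markers of other cell types were low, with 15 of 16 measured, 2 past the filter in each comparison (CD68 and CD14) and 5 listed at 0 in both libraries of each table. Their summed level was 10.2 FPKM with the precursor and 7.86 with its control, and 8.45 with the antimir and 7.76 with its control. The collagen COL3A1 was listed at 0 in all 4 libraries. Depth is unknown, because FPKM values carry no read counts.

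The first comparison sets the precursor of miR-23b against its control. All 7 measured markers lay above 0 in the precursor library, and none reached 1.5-fold. Over all 16982 genes past the filter, 3.36% were at least 1.5-fold higher and 3.32% at least 1.5-fold lower (0.529% and 0.617% of protein-coding genes). Differences are between log2(FPKM + 1) of the precursor library and of its control, centred on the median gene, a scale on which changes of low genes look smaller. The median over the markers was 0.15, where the interquartile range of all genes ran from -0.12 to 0.12.

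Among the receptors and surface proteins, ALCAM, a cell adhesion molecule, had the largest difference of the set at 0.39, at percentile 94.6 of all genes. LGR5 differed by 0.21 (percentile 86.8), PROM1, a pentaspan protein of membrane protrusions, by 0.15 and LRIG1 by 0.14. EPCAM, an epithelial adhesion molecule, differed by 0.085, inside the interquartile range. In bulk RNA, fewer cells of a type and less RNA per cell cannot be told apart. Of the nuclear proteins, HOPX differed by 0.17 and BMI1 by 0.0044. These are small differences, and the largest corresponds to a ratio of 1.41 in FPKM. With the most abundant transcript of each gene alone, 4 of 7 lay above 0 (median 0.058) and again none was past 1.5-fold, where 4.42% of all genes were higher and 4.34% lower by that measure. The most abundant transcript of PROM1, ENST00000513946, was at 21.6 FPKM with the precursor and 17.99 with its control (0.22). The authors had not tested this entry, and in the antimir comparison the most abundant PROM1 transcript was a different one, ENST00000508167.

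Taken transcript by transcript, the precursor differences were uneven within genes. In the precursor comparison 30 transcript entries of the markers had a mean FPKM of at least 1. Of these, 2 were higher by 1.5-fold or more and 0 lower, where 5.52% of 53771 such entries over all genes were higher and 5.97% lower. Under a minimum mean FPKM of 5, 0 of 17 were higher, and the share over all entries was not computed there. Both higher entries passed the filter only through the precursor library, where they were high. One was a short coding transcript of PROM1, ENST00000508940 (567 bases in GENCODE 29), at 2.41 FPKM with the precursor and 0.503 with its control (1.17). The other was a processed transcript of LRIG1, ENST00000497721 (598 bases), at 1.97 and 0.435 FPKM for the precursor and for its control (1.04). Neither held much of its gene: they took 3.15% and 16.2% of the summed FPKM with the precursor.

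A form with 24.0% of the ALCAM FPKM with the precursor made up most of the difference of the gene. This processed transcript, ENST00000460954 (564 bases), was at 1.41 FPKM with the precursor and 0.212 with its control. The longest coding transcript, ENST00000306107, also the most abundant, was at 1.64 FPKM with the precursor and 1.601 with its control, nearly level (0.011 centred on the median transcript entry, as for the entries above, and -0.0069 centred on the median of the most abundant transcripts). With coding transcripts alone the gene differed by 0.10. LGR5 went the other way, with its longest coding transcript ENST00000266674 at 1.44 FPKM with the precursor and 0.835 with its control, and a larger difference on that transcript (0.40 centred on the median transcript entry) than in the sum. This LGR5 transcript passed the filter only through the precursor library, where it was high. For PROM1 the coding transcript ENST00000508167 was at 16.2 FPKM with the precursor and 12.4 with its control.

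LRIG1, HOPX and BMI1 lay below 0 in the precursor library once only coding transcripts were summed. Coding transcripts of LRIG1 summed to 2.07 FPKM with the precursor and 2.38 with its control (-0.17), and those of HOPX to 2.19 and 2.89 for the precursor and for its control (-0.32). Those of BMI1 summed to 54.9 FPKM with the precursor and 58.1 with its control (-0.12). Counted this way, 4 markers lay above 0 (LGR5, PROM1, ALCAM and EPCAM) and 3 below.

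In the authors' deposited table, 9 of 53 tested transcript entries of the markers were called, 6 higher and 3 lower in the precursor library. Over all 78175 tested transcript entries of the authors' deposited table, 6.91% were called higher and 6.66% lower. The p and q behind such calls compare 2 libraries, not 2 conditions. For LGR5 the authors' deposited table called the longest coding transcript higher (q = 0.000793) and a retained-intron form, ENST00000550851, lower (q = 0.000534). That form was at 0.281 FPKM with the precursor and 0.716 with its control. For PROM1 the authors' deposited table called 3 transcripts higher and 2 lower, ENST00000508167 among those higher (q = 0.0062). The authors' deposited table also called 1 transcript each of ALCAM and EPCAM higher, and none of LRIG1, BMI1 or HOPX was called.

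Each marker also had an entry for its whole locus, listed under the gene identifier. They were lower in the precursor library for 6 of the 9 markers, and over all genes 77.7% of such entries above 0 in both libraries were lower. BMI1 had 0.461 FPKM at its whole locus with the precursor and 0.704 with its control, PROM1 had 0.291 with the precursor and 0.378 with its control, and EPCAM had 0.318 with the precursor and 0.42 with its control. In the authors' deposited table these 3, the only ones tested, were all called lower, as were 30.2% of all such tested entries of genes with transcripts (0.6% were called higher). The whole-locus entries thus lay below the control in the same library where the transcript sums of these genes lay above it, for BMI1 by only 0.0044. Those sums include retained-intron entries, so they are not sums of spliced RNA alone. With coding transcripts alone, BMI1 lay below the control (-0.12). In the antimir comparison the authors' deposited table called none of the same 3 entries, where 0.127% of tested ones were called higher and 0.0212% lower.

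The second comparison sets the antimir against miR-23b beside its control. HOPX stood apart from the other markers in the antimir library, at 2.84 FPKM against 0.545 in the control (1.35, percentile 97.4 of all genes). It was the 1 marker of 7 past 1.5-fold, and none was past it below 0. HOPX passed the filter only through the antimir library, where it was high, so its place past 1.5-fold and its percentile are a description. Over all 14190 genes past the filter, 5.07% were at least 1.5-fold higher and 2.9% lower (1.75% and 0.886% of protein-coding genes). The median over the markers was -0.16, with the interquartile range of all genes from -0.14 to 0.15. That median lay on the other side of 0, at 0.065, with the most abundant transcript alone and at 0.089 with coding transcripts alone.

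Of the 7 markers, 4 lay below 0 in the antimir library. LGR5 differed by -0.24 (percentile 12.8), PROM1 by -0.19, LRIG1 by -0.17 and BMI1 by -0.16. ALCAM differed by 0.053 and EPCAM by 0.16 (percentile 76.2). LGR5 was below 0 in all 9 alternative ways of computing it, from -0.31 to -0.20. PROM1 was at 0.021 and LRIG1 at 0.11 with the most abundant transcript alone, and BMI1 was at 0.13 with coding transcripts alone. With the most abundant transcript alone, 0 of 6 measured markers were past 1.5-fold, where 6.66% of all genes were higher and 4.76% lower.

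HOPX was measured from low transcript values, which did not match between libraries. Its most abundant form in the antimir library, ENST00000553379, was at 1.15 FPKM there and listed at 0 in the antimir control, the precursor library and the precursor control. A second coding form, ENST00000556614, was at 0.742 FPKM with the antimir and listed at 0 in the antimir control, but at 1.46 with the precursor and 2.03 with its control. Another coding form, ENST00000337881 (1611 bases in GENCODE 29), was at 0.355 FPKM with the antimir and 0.404 with its control. No HOPX transcript reached a mean FPKM of 1 in that table. In the authors' deposited table ENST00000553379 was called higher in the antimir library (q = 0.0113), the only transcript of any marker called there. Of 62029 tested transcript entries in the authors' deposited table, 0.243% were called higher and 0.171% lower.

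Among the 24 marker transcripts with a mean FPKM of at least 1 in the antimir comparison, 3 were higher by 1.5-fold or more and 4 lower. Over 40627 such entries of all genes, 10.4% were higher and 10.2% lower. Under a minimum mean FPKM of 5, 2 of 13 marker transcripts were higher and 3 lower, and the share over all entries was not computed there. Under the minimum of 1, BMI1 held 5 of the 7. Its coding transcript ENST00000442508 (536 bases) was at 17.3 FPKM with the antimir and 9.03 with its control (0.90), and ENST00000443519 (552 bases) at 15.6 and 9.14 for the antimir and for its control (0.74). In the other direction, coding transcript ENST00000416820 (406 bases) was at 7.997 FPKM with the antimir and 19.05 with its control (-1.13). The retained-intron forms ENST00000456675 (-0.69) and ENST00000490311 (-1.37) were also lower.

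The most abundant entry of BMI1, the retained-intron form ENST00000496174 (365 bases), was at 23.2 FPKM with the antimir and 30.8 with its control, and at 39.3 with the precursor and 32.1 with its control. Centred on the median of the most abundant transcripts, it differed by -0.37 with the antimir and 0.26 with the precursor. The longest coding transcript of BMI1, ENST00000376663 (3428 bases), was nearly level, at 14.7 FPKM with the antimir and 14.9 with its control. It was at 13.4 FPKM with the precursor and 12.7 with its control. The remaining entries past 1.5-fold in the antimir comparison were a processed transcript of PROM1, ENST00000502943, at 3.47 and 7.18 FPKM for the antimir and for its control (-0.84), and coding transcript ENST00000405271 of EPCAM, at 2.15 and 0.827 (0.82). This EPCAM entry passed the filter only through the antimir library, where it was high. None of the 7 entries past 1.5-fold in the antimir comparison was called in the authors' deposited table. Among them, ENST00000443519 of BMI1 had not been tested by the authors.

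**Figure D2:**
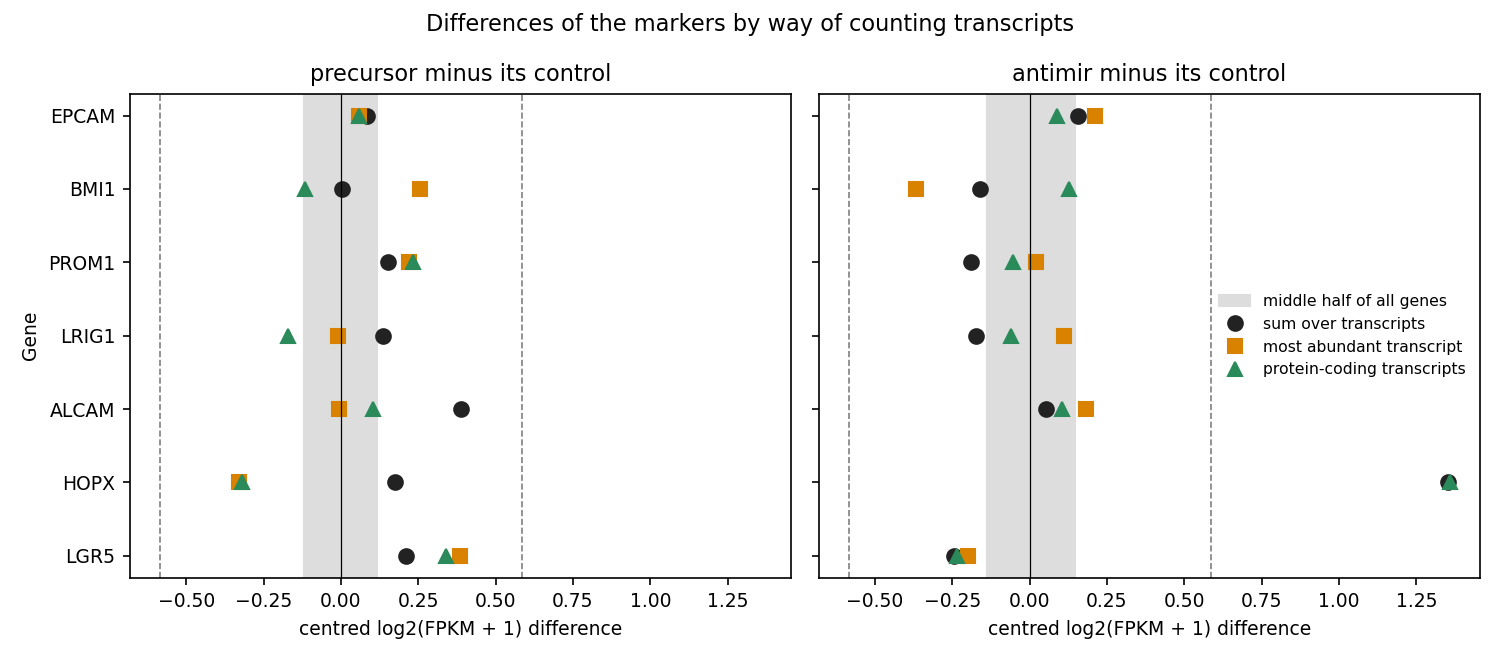
Centred log2(FPKM + 1) difference of each marker, for the precursor minus its control (left) and the antimir minus its control (right). Circles use the sum over transcripts, squares the most abundant transcript and triangles coding transcripts; grey bands are the interquartile range of all genes and dashed lines 1.5-fold. HOPX in the antimir comparison is past a dashed line (1.35, sum) and has no square there. LGR5 and EPCAM keep their signs under all 3 ways in each comparison.

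Set side by side, 4 of the 7 markers lay above 0 with the precursor and below 0 with the antimir: LGR5, PROM1, LRIG1 and BMI1. The 2 comparisons have no library in common. Of 13757 genes that passed in both, 28.7% had this pattern, and 57.1% had opposite signs in either order. ALCAM, HOPX and EPCAM lay above 0 in both. Only LGR5 kept the pattern both with the most abundant transcript (0.38 and -0.20) and with coding transcripts alone (0.34 and -0.23). That transcript passed the filter in the precursor comparison only through the precursor library, at 1.44 FPKM against 0.835 in its control. It also made up most of the coding sum of LGR5, so these 2 measures are not independent. The share of all genes that keep the pattern by these measures was not computed.

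The markers with the seed match in their 3′ UTR were LGR5, PROM1 and LRIG1 among those measured. They lay above 0 in the precursor library (0.21, 0.15 and 0.14) and below 0 in the antimir library (-0.24, -0.19 and -0.17). BMI1, without a match, lay on the same sides (0.0044 and -0.16), as did 28.7% of all genes. All 7 measured markers lay above 0 with the precursor, with or without a match. The share among all genes with a match was not computed. Only part of the FPKM of LGR5, PROM1 and LRIG1 came from transcripts whose own annotated 3′ UTR held the match. In the precursor library this part was 58.7% for LGR5, 23.6% for PROM1 and 17.0% for LRIG1. Summed over those transcripts, LGR5 had 2.24 FPKM with the precursor and 1.498 with its control. PROM1 had 18.03 FPKM with the precursor and 15.3 with its control, and LRIG1 had 2.07 and 2.38 for the precursor and for its control. In the other table these transcripts summed to 1.96 FPKM for LGR5 with the antimir and 2.57 with its control. They summed to 19.02 FPKM for PROM1 with the antimir and 19.3 with its control, and to 2.44 for LRIG1 with the antimir and 2.68 with its control. These sums are not centred, and that of PROM1 was nearly level between the antimir library and its control.

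The transcript make-up of the markers was compared as the share of a gene's FPKM that would have to move between transcripts to match 2 libraries. For EPCAM this was 1.7% between the precursor library and its control and 2.56% between the antimir library and its control, but 19.9% between the 2 controls. Its coding transcript ENST00000419334 (609 bases) was at 80.9 FPKM with the precursor and 72.3 with its control, yet at 0.185 with the antimir and listed at 0 with its control. The most FPKM of EPCAM came from a retained-intron form, ENST00000490733 (752 bases), at 389.9 FPKM with the precursor and 367 with its control, and 311 with the antimir and 274 with its control. The main coding transcript of EPCAM, ENST00000263735, was at 199 FPKM with the precursor and 190.5 with its control, and 259.8 with the antimir and 252 with its control.

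HOPX had the largest such shares of the 7 markers, 31.6% for the precursor, 87.5% for the antimir and 91.5% between the controls, the first at percentile 95.3 of 10975 genes. LGR5 was at 27.2% for the precursor and 12.4% for the antimir, and ALCAM at 25.2% and 15.6% in the same order. BMI1 was at 7.29% for the precursor and 21.5% for the antimir. The medians over all genes were 8.50% for the precursor, 11.7% for the antimir and 24.4% between the controls. For 5 of the 7 markers, as for 72.0% of all genes, the 2 controls differed more than either treated library differed from its control. The libraries of the 2 tables therefore differed in transcript make-up, and levels across the tables are given without a comparison.

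**Figure D3:**
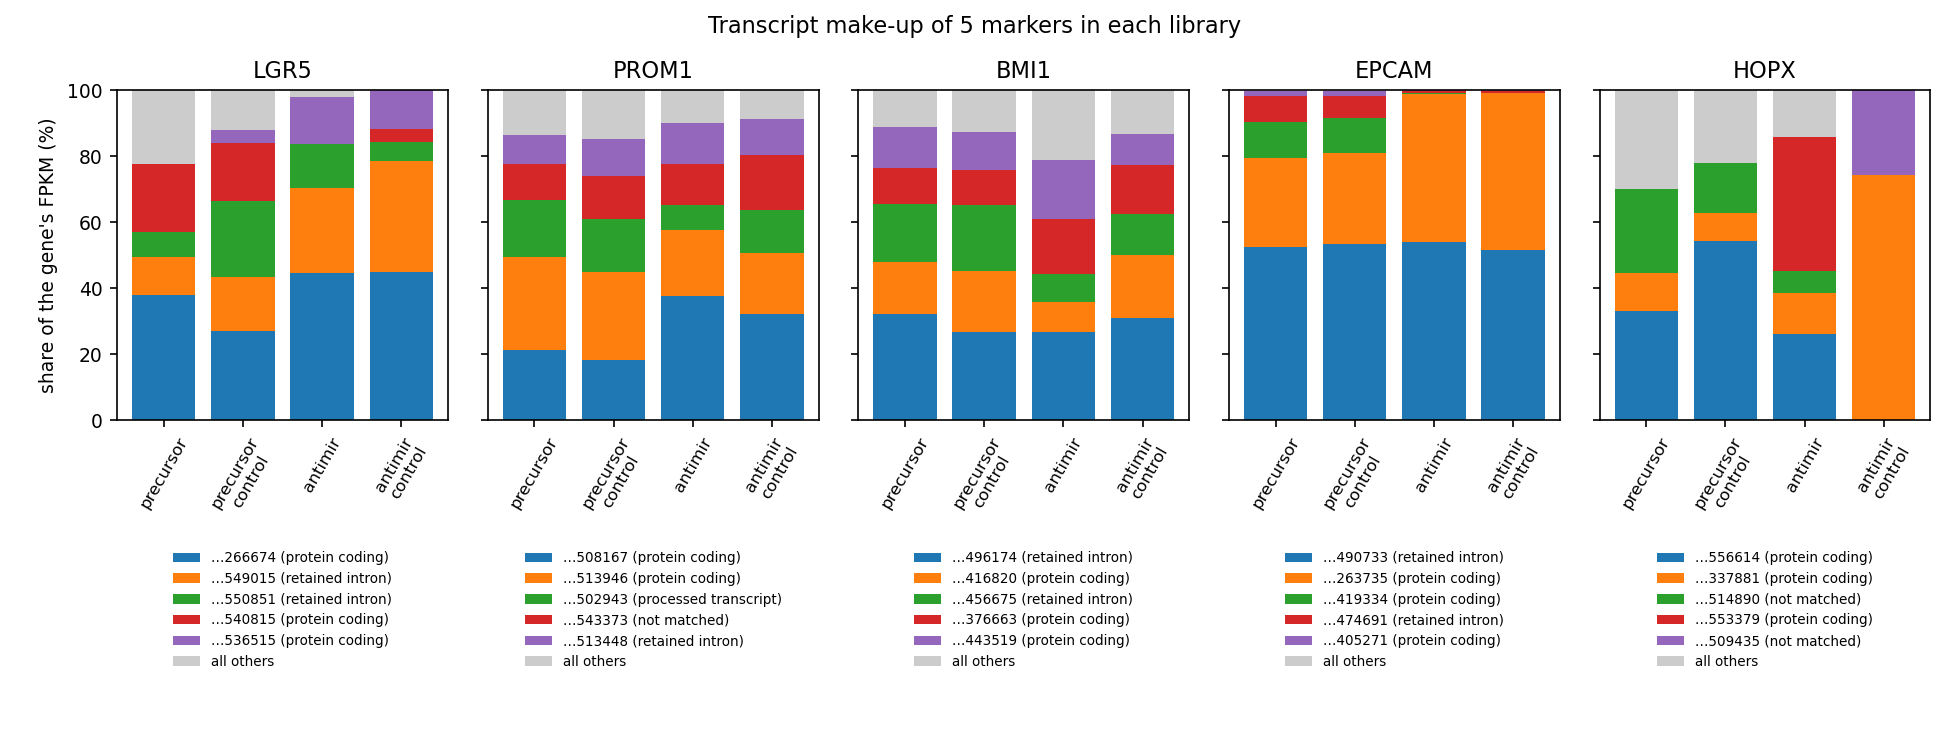
Share of each gene's FPKM (%) held by its 5 most abundant transcripts, with all others in grey, for LGR5, PROM1, BMI1, EPCAM and HOPX in each library. Legends give the last 6 digits of the transcript identifier and its GENCODE 29 type; the EPCAM bars differ mainly between the tables, and the HOPX bar of the antimir control shares little with the others.

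LGR5 acts with the ligases RNF43 and ZNRF3 and the co-receptors LRP5 and LRP6. Of 10 such partners, 6 were measured in the precursor comparison with 5 above 0 (median 0.085), and 5 in the antimir comparison with 1 above 0 (median -0.025). None was past 1.5-fold in either. LRP6 was at 17.7 FPKM with the precursor and 16.1 with its control (0.11), and 10.6 with the antimir and 13.7 with its control (-0.30). LGR4, a paralogue of LGR5 with the same ligands, was at 49.2 and 47.2 FPKM for the precursor and for its control (0.034), and 37.0 and 39.5 for the antimir and for its control (-0.053). Of the R-spondin ligands, RSPO1 was at 27.4 FPKM with the precursor and 21.1 with its control, all from 1 transcript, but at 0.0130 with the antimir and listed at 0 with its control.

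All 16 partners and targets of BMI1 were measured in both comparisons, and none was past 1.5-fold. In the precursor comparison 11 lay above 0 (median 0.031), and in the antimir comparison 3 lay above 0 (median -0.028). PCGF2, a paralogue that takes the place of BMI1 in some complexes, was at 17.2 FPKM with the precursor and 14.4 with its control (0.21), and 13.3 with the antimir and 15.7 with its control (-0.18). CDKN2A, the locus that BMI1 is known to repress, was at 93.6 FPKM with the precursor and 88.1 with its control (0.064), and 77.0 with the antimir and 75.1 with its control (0.074).

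EPCAM partners lay mostly above 0 in the precursor library (7 of 10, median 0.15) and below 0 in the antimir library (9 of 10, median -0.046). SPINT1, an inhibitor of the membrane protease matriptase, was at 168 FPKM with the precursor and 135 with its control (0.29), and 84.6 with the antimir and 107 with its control (-0.30). TSPAN8, a tetraspanin whose locus in the tables is shared with LGR5, differed by -0.17 for the precursor and 0.19 for the antimir. In the LRIG and ERBB families, 3 of 5 measured genes lay above 0 with the precursor (median 0.042) and 0 of 5 with the antimir (median -0.27). LRIG3, a paralogue of LRIG1, was the only partner past 1.5-fold, at 5.18 FPKM with the antimir and 9.42 with its control (-0.72). It was also lower in the precursor library, at 7.60 FPKM against 9.87 in the control (-0.36).

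The 3 genes of the Musashi and NUMB list had medians of 0.073 with the precursor and -0.16 with the antimir. MSI2, the paralogue of MSI1, was at 32.8 FPKM with the precursor and 32.5 with its control (-0.0076), and 30.3 with the antimir and 35.3 with its control (-0.18). PROM2, a paralogue of PROM1, was the only one of 7 remaining relatives measured, at 50.7 FPKM with the precursor and 40.3 with its control (0.30). It was at 14.5 FPKM with the antimir and 18.4 with its control (-0.29), the same signs as PROM1.

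Other intestinal stem and progenitor genes, 25 of 32 measured, had 17 above 0 with the precursor (median 0.073) and 8 above 0 with the antimir (median -0.047). None was past 1.5-fold in either comparison. PROX1, a transcription factor of colon tumour progenitors, was at 1.82 FPKM with the precursor and 0.989 with its control (0.48), and 0.940 with the antimir and 1.42 with its control (-0.28). In each comparison PROX1 passed the filter only through the library where it was higher, so its differences are a description. ITGA6, a laminin receptor subunit of crypt base cells, was at 68.1 FPKM with the antimir and 83.1 with its control (-0.25). In absolute size, the 4 largest differences of these genes lay above 0 with the precursor (PROX1, AXIN2, ASCL2 and SOX9) and below 0 with the antimir (PROX1, CD44, ITGA6 and RGMB). They were picked by size from these same values, so their shared side is a description. RGMB lay below 0 with the precursor as well (-0.21, close in size to SOX9 at 0.21), as did 8 of the 25 genes in all. CD44, a hyaluronan receptor, differed by 0.14 with the precursor and -0.28 with the antimir, and ALDH1A1, an aldehyde dehydrogenase, by 0.073 and 0.022.

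Markers of colon epithelium at large lay mostly on the same sides of 0. All 10 measured lay above 0 with the precursor (median 0.14), and 2 of 8 with the antimir (median -0.087). Differentiated enterocyte markers gave 2 measured genes of 12 in each comparison, with medians of 0.13 and -0.10, and secretory markers gave 4 of 14 (median 0.060) and 3 of 14 (median -0.17). The goblet cell peptide TFF3 was the 1 gene of these lists past 1.5-fold, at 12.6 FPKM with the precursor and 7.89 with its control (0.60). With the precursor, 2 of the 4 secretory markers lay above 0 and 2 below. LYZ, the most abundant of the 4, was below 0, at 3606 FPKM with the precursor and 3685 with its control (-0.054). The enterocyte markers split in each comparison, with 1 above 0 and 1 below. The medians of the 2 measured markers of other cell types were 0.38 with the precursor and 0.17 with the antimir. The stem and progenitor markers were therefore not the only epithelial genes on these sides of 0, and no difference between the lists was tested.

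**Figure D4:**
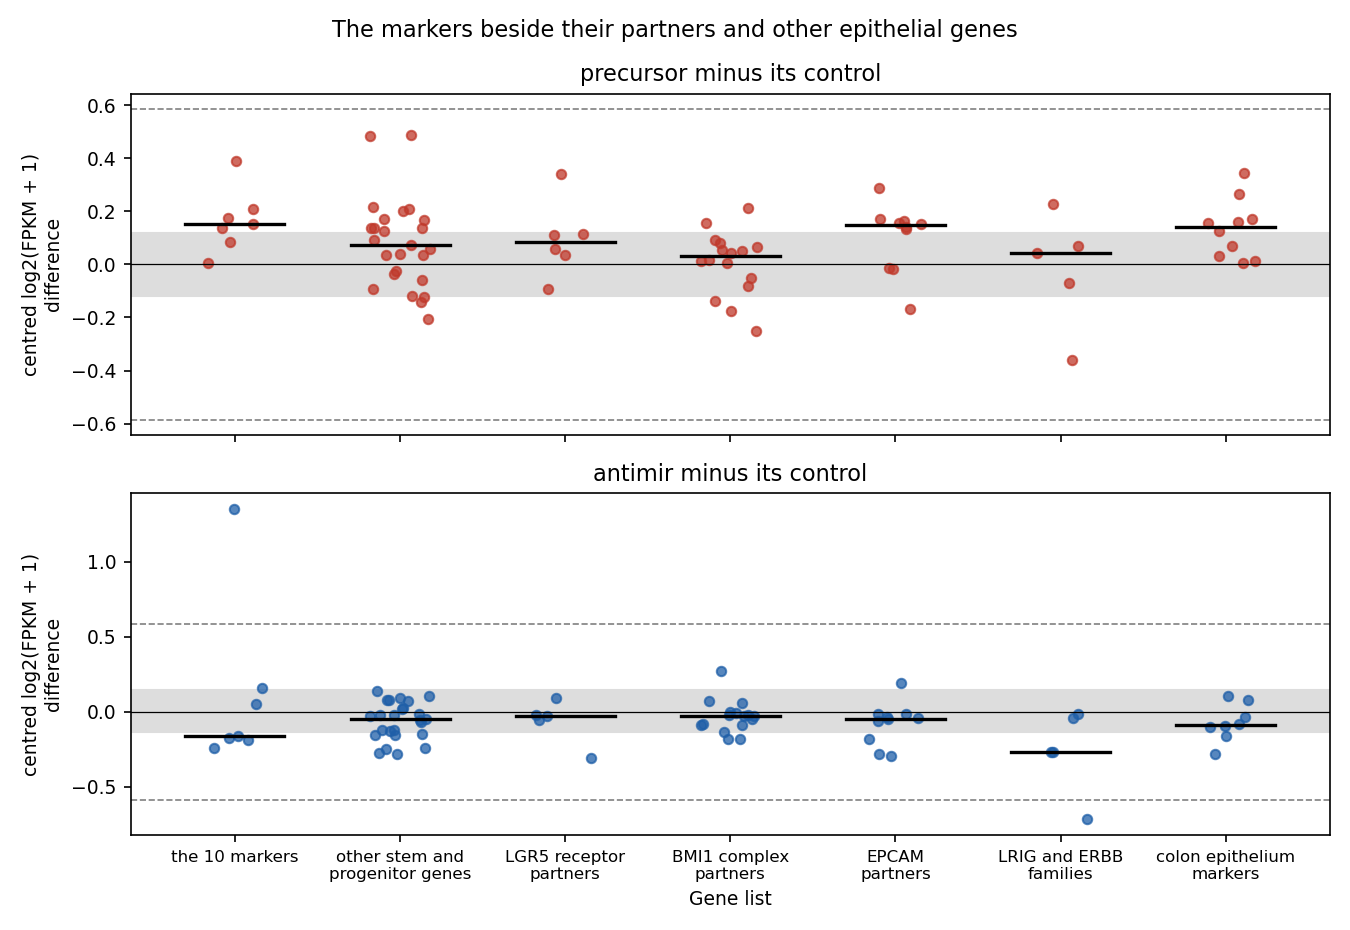
Centred log2(FPKM + 1) differences of single genes (points) and their median (black line) in 7 gene lists, for the precursor minus its control (top) and the antimir minus its control (bottom). Grey bands are the interquartile range of all genes and dashed lines 1.5-fold; HOPX (1.35) and LRIG3 (-0.72) in the antimir comparison are the points past a dashed line.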

How the data were processed

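The submitters' processing notes name bcl2fastq 1.8.3, TopHat2 2.0.11, Cufflinks 2.2.0, Cuffdiff and the build hg19. Settings and annotation are not given in the sources used here. In the 2 deposited tables the authors gave FPKM for 1 treated and 1 other library (its name ending in N, taken as the control). Per the file headers, a p-value and q-value by the authors stood beside them, used only as their calls; directions were taken from the FPKM.

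A gene's FPKM was summed over its transcript entries without failed status; whole-locus entries were used only for genes with no transcript entry. Genes whose mean FPKM reached 1 were compared as log2(FPKM + 1), treated minus control, after removing the median difference (0.022 for the precursor and -0.038 for the antimir). The depth is unknown, so no counting interval is given. Transcript types, lengths and UTRs came from GENCODE 29 by identifier. Calculations used Python 3.11.15 with pandas 2.3.3 and NumPy 2.4.6 and were tested on simulated data.

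The markers and gene lists were chosen with earlier results of these data known, and lists share members. Named genes were the 10 markers, their most abundant transcripts and those past 1.5-fold, up to 4 genes per list with the largest differences, and CD44, ALDH1A1, LGR4, MSI2, CDKN2A and PROM2. Longest coding transcripts, other coding forms of HOPX, EPCAM and PROM1, transcripts called by the authors, ENST00000460954, ENST00000419334, KRT8, COL3A1 and CD24P4 were added after their values were seen. Loci in the tables merge neighbours (LGR5 with TSPAN8, LRIG1 with SLC25A26, BMI1 with COMMD3), and strand use in counting is not given.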

Additional observations from a re-analysis of the deposited data

How the results depend on the processing

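Of the 10 alternatives, 9 were listed in advance and 1, coding transcripts only, was chosen after seeing the data. Of 134 marker differences recomputed, 115 moved by at most 0.1 and 19 by more, and HOPX in the antimir comparison, the difference past 1.5-fold, kept its sign wherever it had a value. The median over the markers in the antimir comparison turned to 0.065 with the most abundant transcript alone and to 0.089 with coding transcripts alone. HOPX gave the count of 1 higher marker with the antimir, which became 0 under a minimum mean FPKM of 5 and 0 with the most abundant transcript alone, where it fell below the filter; with a pseudocount of 0.1 HOPX was at 2.23. Without a filter, 6 of 55 marker transcripts were past 1.5-fold higher with the antimir and 7 lower. With the precursor, 4 of 68 were higher and 2 lower. With coding transcripts alone, 3 of 14 were higher and 1 lower with the antimir. For the precursor, 1 of 17 coding transcripts was higher and 0 lower. Under a minimum mean FPKM of 5, 0 of 17 were higher with the precursor, and a pseudocount of 0.1 gave 1 of 30 lower. The shares over all transcript entries under these settings were not computed. ALCAM in the precursor comparison ranged from -0.0069 to 0.46. No paired analysis was possible because each group is 1 library.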
